A study of Homo sapiens with 4 samples.

Results

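NF-kB subunits, their regulators and a set of their target genes were followed in MDA-MB-468 cells after knockdown of mutant p53. The group holds 35 genes of NF-kB signaling, without chemokines or interleukins, beside 18417 genes compared on the arrays. The members were chosen for textbook role, with earlier results of these data known. Of the 35 members, 32 have a transcript cluster (the array's unit of measurement for a transcript) that names them alone. TRAF2, BIRC3 and CSF2 are not analysed here. MDA-MB-468 is an established breast cancer line with endogenous mutant p53 (R273H), and every array came from it. Cells received lentiviral shRNA that targets p53 (p53si-1, 2 arrays) or a non-targeting shRNA (NS, 2 arrays), and RNA was hybridized to Affymetrix Human Gene ST arrays. The methods and the results of the study give different times after transduction. There was 1 p53 shRNA sequence, so an effect of that sequence and an effect of p53 loss cannot be told apart. The p53 transcript is not analysed here, so no value for the knockdown is given.

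NF-kB is a family of dimeric transcription factors built from RELA, RELB, REL and the processed products of NFKB1 and NFKB2. In resting cells IkB proteins hold the dimers in the cytoplasm. Signals from receptors of the TNF, interleukin-1 and Toll-like families pass through TRAF and cIAP ubiquitin ligases to the IkB kinases, which mark IkB for destruction. A slower branch runs through MAP3K14 and CHUK and releases RELB with the NFKB2 product. Active dimers bind kB sites in DNA, and their targets include the inhibitors NFKBIA and TNFAIP3, which close a feedback loop. Basal-type breast cancer lines such as MDA-MB-468 are known for basal NF-kB activity.

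The windows before the start sites of several members hold a kB consensus motif. They are shown because these are the letters that NF-kB dimers are known to read, and because the genes below differ in how they behaved on the arrays. Promoter sequences are from RefSeq (GRCh38.p14) and run from 250 bases before to 50 bases after each start. A window was found for 29 of the 35 members, and the kB consensus motif was searched on both strands with overlapping matches counted. It lay in 9 of 29 windows (31.0%) and in 1562 of 27305 windows of all genes in the table (5.72%). The members were chosen partly as known targets of NF-kB, so this share is a description of the choice. Each sequence reads 5′ to 3′ with the gene, and capitals mark the motif.

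NFKBIA: tgactggcttGGAAATTCCCcgagcctgac

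TNFAIP3: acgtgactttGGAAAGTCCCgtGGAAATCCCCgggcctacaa

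NFKB1: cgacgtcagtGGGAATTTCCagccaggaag

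LTB: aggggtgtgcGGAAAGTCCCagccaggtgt

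TRAF3: cgggcgcgccGGGGATTTCCagcgcgcgag

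REL: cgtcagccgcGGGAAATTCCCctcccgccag

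NFKBIZ: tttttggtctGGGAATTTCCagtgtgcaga

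The NFKBIA stretch is chr14:35404811-35404840 on the minus strand, with the motif beginning 81 bases upstream of the start. The TNFAIP3 stretch is chr6:137867182-137867223 on the plus strand and holds 2 motifs, beginning 67 and 55 bases upstream. The NFKB1 stretch is chr4:102501300-102501329 on the plus strand, with its motif 49 bases upstream. The LTB stretch is chr6:31582492-31582521 on the minus strand (86 bases upstream). The TRAF3 stretch is chr14:102777406-102777435 on the plus strand (33 bases upstream). The REL stretch is chr2:60881517-60881547 on the plus strand, where overlapping matches on both strands begin 47 and 46 bases upstream. The NFKBIZ stretch is chr3:101827757-101827786 on the plus strand (223 bases upstream). BCL3 and BIRC3 also hold a match and are not shown. NFKBIA, TNFAIP3, NFKB1, LTB and TRAF3 had lower means with p53si-1, while NFKBIZ and REL had higher means. In NFKBIA, TNFAIP3 and LTB the motif lies on the strand opposite to the gene. NFKB1 and NFKBIZ share the same motif letters, and NFKBIA and REL hold these letters on the opposite strand. Of these genes, NFKB1 and NFKBIA had lower means, and NFKBIZ and REL had higher ones. Of 8 measured members with the motif, 6 had a lower mean, with a median log2 difference of -0.19. Of 18 measured members without it, 14 had a lower mean, with a median of -0.13. No difference between these was tested, and a match is not evidence of binding. A window without a match does not show that the gene lacks a kB site elsewhere.

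Values are log2 RMA signals as deposited, 1 per gene and array, where RMA is the method that corrects background, equalizes the arrays and summarizes probes. A difference is the mean of the p53si-1 arrays minus the mean of the NS arrays on this log2 scale, with n = 2 arrays per group throughout. limma gave a p for each gene, and the Benjamini-Hochberg adjustment ran over 18417 genes. Medians of the arrays over these genes ran from 6.56 to 6.61. Epithelial markers were bright in this line, with group means from 9.39 to 12.44 over 6 genes (EPCAM, CDH1, KRT8, KRT18, KRT19 and EGFR). Of 7 leukocyte markers, 5 lay below the lower quartile of all genes' signals, with PTPRC (CD45) between 3.01 and 3.14, while CD14 was bright at 9.69 to 9.92. Differences of the leukocyte markers between the groups ran from -0.11 to 0.10, and their part in the results below was not tested. Of 5 fibroblast and 4 endothelial markers, 2 each lay below that quartile, and KDR, an endothelial receptor, was the marker that differed most (8.36 and 8.73 with NS, 8.91 and 9.18 with p53si-1, adjusted p = 0.275 from limma). None of the 22 markers passed an adjusted p of 0.05 from limma, and at an unadjusted p under 0.05 KDR alone was past it.

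No NF-kB member passed an adjusted p of 0.05 from limma in the comparison of p53si-1 with NS, where 0.109% of all genes did. No member differed by over 1.5-fold, the fold criterion of the study, where 0.652% of all genes were lower and 0.271% higher by that much. At an unadjusted p under 0.05 from limma, 6 members were lower (6.8% of all genes were) and 1 was higher (5.45% of all genes were). The lower members at that level were SOD2, PLAU, NFKBIA, TNFAIP2, IKBKE and LTB, and the higher one was NFKBIZ. The smallest adjusted p of a member was 0.235, for TNFAIP2. Standard errors of the members' differences ran from 0.0792 for BCL3 to 0.23 for TNF, and the others not printed below lay between 0.0796 and 0.14.

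Of the 32 measured members, 24 had a lower mean with p53si-1, against 52.6% of all genes. The median difference of the members was -0.14, against -0.0089 over all genes. Both p53si-1 arrays lay below both NS arrays in 17 members, an arrangement found in 22.6% of all genes. Both lay above in 4 members (NFKBIZ, IKBKB, BIRC2 and REL), an arrangement found in 19.9% of all genes. The other 11 members overlapped between the groups. The differences ran from -0.51 for TNF to 0.31 for NFKBIZ.

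**Figure D1:**
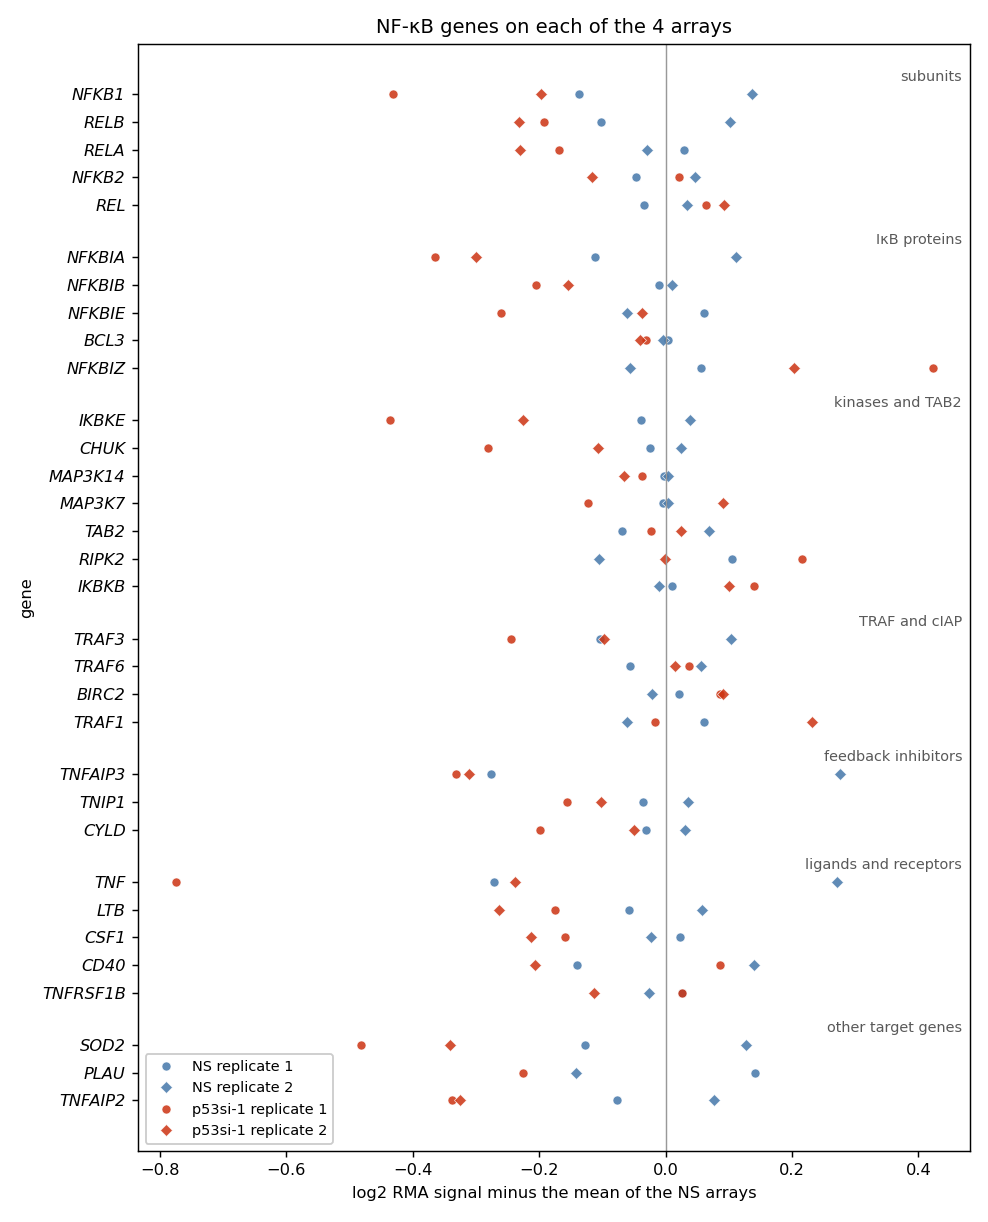
Log2 RMA signal of each of the 4 arrays minus the mean of the NS arrays (x axis), for 32 NF-kB genes (y axis) in 7 groups by role. Blue symbols are NS arrays, red symbols are p53si-1 arrays, circles are replicate 1 and diamonds replicate 2. In 17 genes both red symbols lie left of both blue ones, and in 4 genes to the right.

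Of the 5 subunits, 4 had a lower mean. NFKB1, RELA and RELB were lower without overlap, an arrangement found in 22.6% of all genes. NFKB1, the precursor of the p50 subunit, was at 8.51 and 8.78 on the NS arrays and at 8.21 and 8.45 on the p53si-1 arrays. Both p53si-1 arrays lay below both NS arrays (difference -0.31, standard error 0.13, adjusted p = 0.407 from limma). The difference of NFKB1 was -0.18 without NS replicate 2 and -0.20 without p53si-1 replicate 1. RELA, the main activating subunit p65, was at 9.24 and 9.18 with NS and at 9.04 and 8.98 with p53si-1. Its arrays were separated too, with replicates closer together than the groups (difference -0.20, standard error 0.08, adjusted p = 0.408 from limma).

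RELB, the partner of the NFKB2 product in the slower branch, was at 6.88 and 7.09 with NS and at 6.79 and 6.75 with p53si-1. The groups did not overlap (difference -0.21, standard error 0.10, adjusted p = 0.456 from limma), and NS replicate 2 stood highest, without which the difference was -0.11. NFKB2, the precursor of p52, was at 7.63 and 7.72 with NS and at 7.69 and 7.56 with p53si-1. Its groups overlapped, with a difference of -0.05 and a 95% interval of -0.27 to 0.18. REL, the subunit best known from lymphocytes, was at 7.74 and 7.81 with NS and at 7.84 and 7.87 with p53si-1. Both p53si-1 arrays lay above both NS arrays, but by 0.08 with a 95% interval of -0.12 to 0.28, and by 0.0435 without NS replicate 1.

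Of the 5 IkB proteins among the members, 4 had a lower mean, and NFKBIZ, a nuclear one, had a higher mean. NFKBIA encodes IkB-alpha, the inhibitor that NF-kB itself induces, and its promoter stretch is shown above. It was at 10.53 and 10.76 with NS and at 10.28 and 10.34 with p53si-1. The groups did not overlap (difference -0.33, standard error 0.10, adjusted p = 0.289 from limma), and the 95% interval ran from -0.58 to -0.08. Without NS replicate 2 the difference was -0.22. NFKBIB (IkB-beta) was at 9.12 and 9.14 with NS and at 8.93 and 8.98 with p53si-1, a difference of -0.18 without overlap. NFKBIE (IkB-epsilon) had a difference of -0.15, with p53si-1 replicate 2 (7.30) above NS replicate 2 (7.28).

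NFKBIZ encodes IkB-zeta, an inducible nuclear cofactor that NF-kB needs for some secondary targets. It was at 8.53 and 8.42 with NS and at 8.90 and 8.68 with p53si-1. Both p53si-1 arrays lay above both NS arrays (difference 0.31, standard error 0.11, adjusted p = 0.323 from limma), with a 95% interval of 0.06 to 0.57, and the difference was 0.20 without p53si-1 replicate 1. It had the largest positive difference among the members. BCL3, another nuclear IkB, was at 7.88 and 7.87 with NS and at 7.84 and 7.83 with p53si-1. Its difference was -0.04 with a 95% interval of -0.23 to 0.16. NFKBID, an IkB protein outside the member list, had a difference of 0.05 with overlapping groups.

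Among 7 genes of the kinase level, 4 had a lower and 3 a higher mean, and the median difference was -0.0161. IKBKE, an IkB-kinase-related kinase of the interferon and NF-kB response, was at 8.51 and 8.59 with NS and at 8.12 and 8.33 with p53si-1. The groups did not overlap (difference -0.33, standard error 0.10, adjusted p = 0.284 from limma). CHUK, the IKK-alpha subunit, was at 8.78 and 8.83 with NS and at 8.52 and 8.70 with p53si-1, a difference of -0.19. IKBKB, the IKK-beta subunit, lay on the other side, at 7.98 and 7.96 with NS and at 8.11 and 8.07 with p53si-1, a difference of 0.12.

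The 2 catalytic IkB kinases thus had means on opposite sides of NS, each without overlap. The arrangement of CHUK was found in 22.6% of all genes and that of IKBKB in 19.9%. Neither passed the test (adjusted p = 0.479 for CHUK and 0.615 for IKBKB from limma). MAP3K14 (NIK), which starts the slower branch, had a difference of -0.05 with a 95% interval of -0.24 to 0.14. MAP3K7 (TAK1) and its adaptor TAB2 had differences of -0.0161 and 0.00074, with 95% intervals of -0.26 to 0.23 and -0.22 to 0.22. RIPK2, the kinase that NOD receptors use, had a difference of 0.11 with overlapping groups.

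Of 4 measured ubiquitin ligases and TRAF adaptors, 3 had a higher mean. TRAF3, which holds NIK at low levels, had a difference of -0.17, with NS arrays at 7.12 and 7.33 and p53si-1 arrays at 6.98 and 7.13. Its groups overlapped only by the p53si-1 replicate 2 array, which stood just above NS replicate 1. BIRC2 (cIAP1), which works with TRAF3, was at 9.27 and 9.22 with NS and at 9.33 and 9.34 with p53si-1, a difference of 0.09. TRAF6, the ligase of the interleukin-1 and Toll-like receptors, had a difference of 0.03, and TRAF1, itself an NF-kB target, of 0.11. TRAF1 lay below the lower quartile of all genes' signals (3.96 to 4.25), where RMA can understate a difference.

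All 3 members grouped as feedback inhibitors had lower means. In all 3 both p53si-1 arrays lay below both NS arrays, an arrangement found in 22.6% of all genes. TNFAIP3 encodes A20, the ubiquitin-editing enzyme that ends NF-kB signaling. It was at 6.56 and 7.12 with NS and at 6.51 and 6.53 with p53si-1. NS replicate 2 stood apart from the other 3 arrays (difference -0.32, standard error 0.18, adjusted p = 0.53 from limma). Without NS replicate 2 the difference of TNFAIP3 was -0.0447, so that array sets most of its size. TNIP1, an A20-binding protein, and CYLD, a deubiquitinase, had differences of -0.13 and -0.12, with arrays from 7.91 to 8.10 and from 7.24 to 7.47. Other negative regulators, outside the member list, had means on both sides of NS. TNIP2, RNF11 and TNIP3 had differences of -0.06, -0.05 and -0.08, and TAX1BP1 and ITCH of 0.17 and 0.04.

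TNF, the cytokine that both activates NF-kB and is made in response to it, had the largest difference of the members. It was at 6.41 and 6.96 on the NS arrays and at 5.91 and 6.45 on the p53si-1 arrays. The groups overlapped, because p53si-1 replicate 2 lay just above NS replicate 1 (difference -0.51, standard error 0.23, adjusted p = 0.447 from limma). Its size depended on the arrays used, at -0.23 without NS replicate 2 and -0.24 without p53si-1 replicate 1 but -0.78 and -0.77 without the other array of each group. The difference over all 4 arrays was larger in size than that of 98.4% of all genes. TNF has 3 transcript clusters that name it alone, and all 3 hold the same 4 values, so they are 1 measurement.

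LTB, which signals through the lymphotoxin-beta receptor into the slower branch, was at 7.79 and 7.91 with NS and at 7.68 and 7.59 with p53si-1. The groups did not overlap (difference -0.22, standard error 0.09, adjusted p = 0.404 from limma). Of its 4 clusters, 3 hold the same values and the other had a difference of -0.24, at 5.60 and 6.20 with NS and 5.60 and 5.72 with p53si-1. CSF1, the growth factor of macrophages, was at 9.26 and 9.21 with NS and at 9.08 and 9.02 with p53si-1, a difference of -0.19 without overlap. The receptors TNFRSF1B and CD40 had differences of -0.04 and -0.06 with overlapping groups, and CD40 lay below the lower quartile of all genes' signals (3.75 to 4.10).

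The 3 remaining targets were all lower without overlap, an arrangement found in 22.6% of all genes. Their median difference was -0.39. SOD2, the mitochondrial superoxide dismutase that NF-kB induces, was at 10.26 and 10.51 with NS and at 9.90 and 10.04 with p53si-1. This is 1.33-fold (difference -0.41, standard error 0.11, adjusted p = 0.244 from limma), with a 95% interval of -0.69 to -0.13. PLAU, the urokinase plasminogen activator, was at 9.48 and 9.20 with NS and at 9.11 and 8.79 with p53si-1. The groups did not overlap, and replicate 1 was the higher array in both (difference -0.39, standard error 0.15, adjusted p = 0.368 from limma). The difference of PLAU was -0.25 without NS replicate 1 and -0.22 without p53si-1 replicate 2. TNFAIP2, a gene first found as induced by TNF, was at 9.93 and 10.09 with NS and at 9.67 and 9.68 with p53si-1 (difference -0.33, standard error 0.09, adjusted p = 0.235 from limma).

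**Figure D2:**
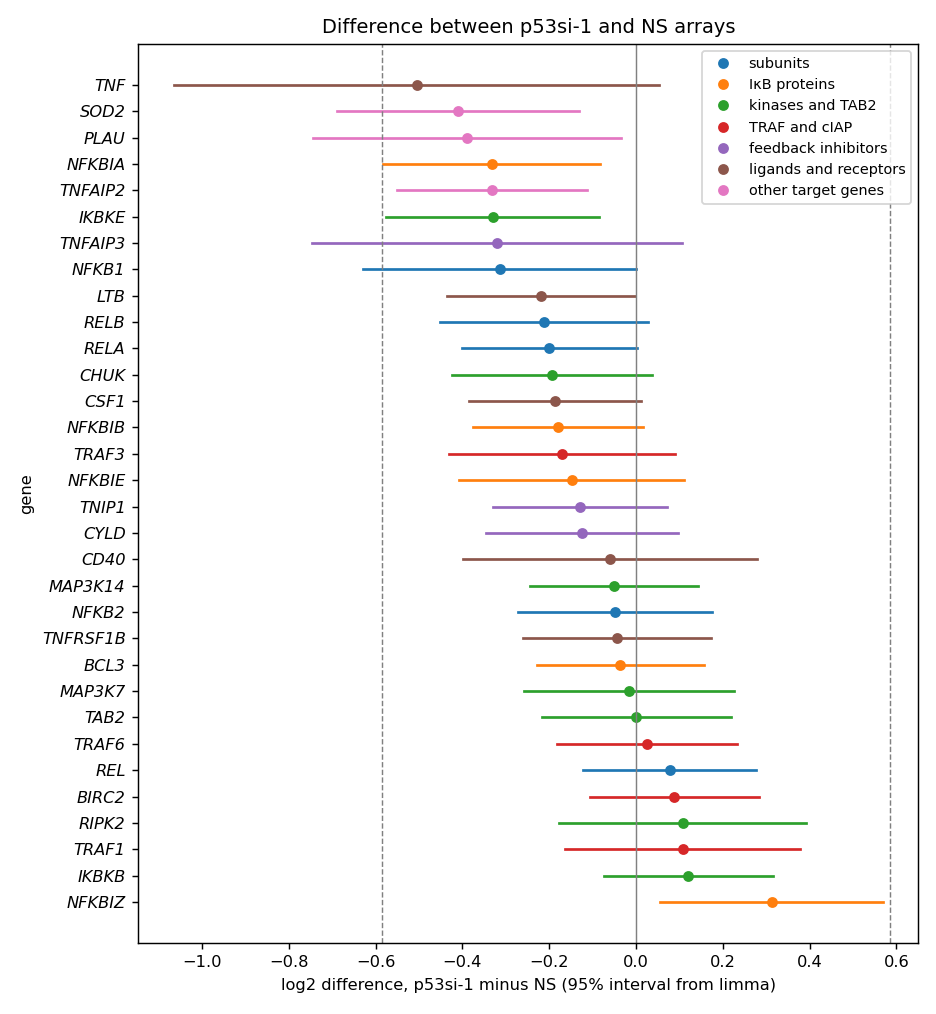
Log2 difference of p53si-1 minus NS (x axis) for 32 NF-kB genes (y axis), coloured by role. Points are differences of group means, bars are 95% intervals from limma, and dashed lines mark 1.5-fold. The interval lies wholly below 0 for SOD2, PLAU, NFKBIA, TNFAIP2, IKBKE and LTB and wholly above it for NFKBIZ.

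Genes of the same pathway outside the member list were read in the same way. Of 49 further signaling genes, 44 were measured. They are receptors, ligands, adaptors, kinases, ubiquitin enzymes, the IkB protein NFKBID and other regulators. Of the 44 measured, 23 had a lower mean, where 52.6% of all genes did. Their median difference was -0.0106, against -0.0089 over all genes. None of the 44 differed by over 1.5-fold, where 0.652% of all genes were lower and 0.271% higher by that much. None passed an adjusted p of 0.05 from limma, as 0.109% of all genes did. At an unadjusted p under 0.05 from limma, 5 were lower (6.8% of all genes were) and 2 higher (5.45% of all genes were). The largest differences were those of LTBR, the receptor for LTB, at -0.42 (8.51 and 8.48 with NS, 8.06 and 8.08 with p53si-1), the TAK1 adaptor TAB3 at -0.40 and TRAF5 at -0.38. TIFA, an adaptor that brings TRAF6 together, was higher by 0.35. The adjusted p of these 4 genes from limma ran from 0.126 to 0.241 with standard errors of 0.0801 to 0.0961, and TRAF5 lay below the lower quartile of all genes' signals.

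A further list, also chosen with earlier results of these data known, held NF-kB targets that are not members. Of its 27 genes, 26 were measured and 18 had a lower mean, where 52.6% of all genes did. The median difference was -0.12, against -0.0089 over all genes. Lower by over 1.5-fold were ICAM1 (-1.04), LIF (-0.92) and CFB, a complement factor (-0.67), with standard errors of 0.13, 0.19 and 0.22. None was higher by that much. Over all genes, 0.652% were lower and 0.271% higher by over 1.5-fold. The study picked ICAM1 on these arrays and also reports it lower by separate real-time RT-PCR. It names LIFR in its text but LIF among its primers. Neither array value is taken here as independent evidence of direction. IRF1, a transcription factor shared with the interferon response, had a mean of 8.06 with NS and 7.58 with p53si-1, a difference of -0.48 (standard error 0.10). None of the 26 passed an adjusted p of 0.05 from limma (0.109% of all genes did). At an unadjusted p under 0.05 from limma, 8 were lower (6.8% of all genes were) and 0 higher (5.45% of all genes were). Of the 26, 7 lay below the lower quartile of all genes' signals. Differences between these lists were not tested.

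**Figure D3:**
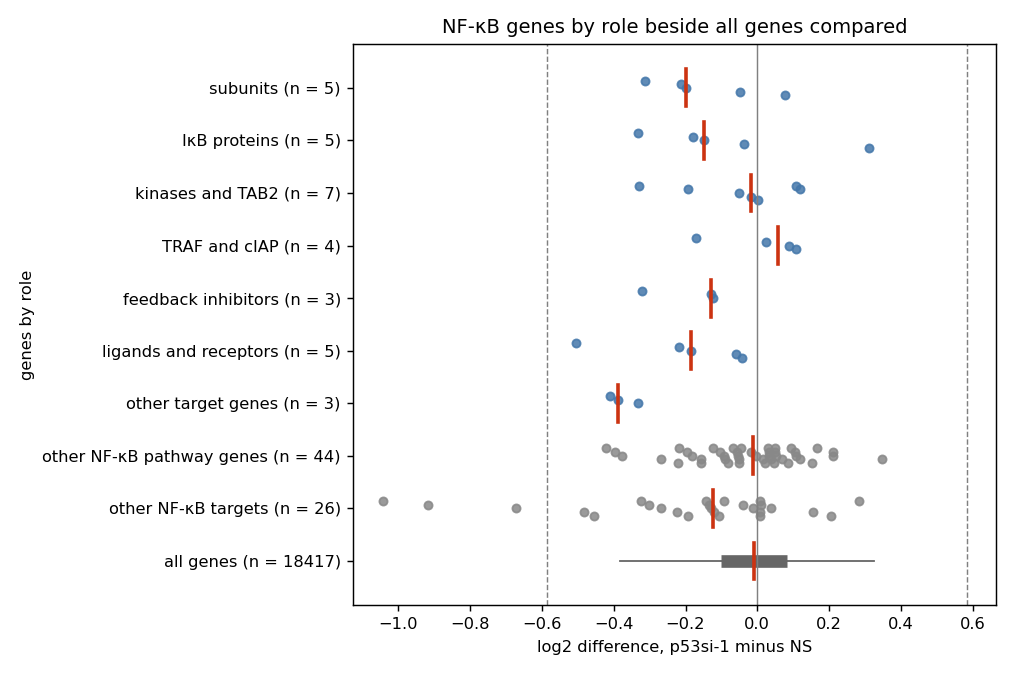
Log2 difference of p53si-1 minus NS (x axis) for NF-kB genes by role (rows). Points are genes (blue for the 32 members, grey for 44 other pathway genes and 26 other targets), red bars are medians, and the last row shows the quartiles (box) and the central 95% (line) of 18417 genes. Medians run from -0.39 for the other target genes among the members to 0.06 for the TRAF and cIAP group, and dashed lines mark 1.5-fold.

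Replicate numbers were compared in the same way, since several members differed as much between the replicates as between the groups. Replicate 2 minus replicate 1 was taken as the mean over both groups. Of the 32 members, 20 were higher in replicate 2, against 46.7% of all genes, and the median was 0.05. None passed an adjusted p of 0.05 from limma (0% of all genes did) or was higher by over 1.5-fold (0.076% of all genes). At an unadjusted p under 0.05 from limma, TNF, NFKB1 and SOD2 were higher (4.25% of all genes were), and PLAU and RIPK2 were lower (6.86% of all genes were). Both replicate 2 arrays lay above both replicate 1 arrays in 4 members (TNF, TRAF3, MAP3K7 and TAB2), an arrangement found in 14.4% of all genes. Both lay below in 2 members (RIPK2 and TNFRSF1B), an arrangement found in 3573 of 18417 genes.

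TNF was higher in replicate 2 by 0.54 in the NS arrays and by 0.54 in the p53si-1 arrays (mean 0.54, standard error 0.07, adjusted p = 0.302 from limma). Between same-numbered arrays its p53si-1 minus NS differences were -0.50 and -0.51. The gap between replicates was thus as large as the gap between groups and of the same size in both groups. PLAU was lower in replicate 2, with a replicate difference of -0.28 for NS and -0.33 for p53si-1 (mean -0.31, standard error 0.07, adjusted p = 0.372 from limma). Its differences between same-numbered arrays were -0.37 and -0.41. With a trend and robust prior variance in limma, the replicate difference passed for TNF (adjusted p = 0.0403) and PLAU (adjusted p = 0.0482). TNFAIP3 was higher in replicate 2 by 0.55 with NS but by 0.0215 with p53si-1 (mean 0.29, standard error 0.14, adjusted p = 0.501 from limma), and its same-numbered differences were -0.06 and -0.59.

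Between same-numbered arrays, 19 members were lower with p53si-1 in both replicates, 5 were higher in both and 8 were not on the same side in both. The medians were -0.12 for replicate 1 and -0.15 for replicate 2, against 0 and -0.0156 over all genes. In 25 of 32 members the difference between the groups was larger in size than the difference between the replicate numbers, which held for 54.5% of all genes. The 7 members where it was not larger were TNF, TNFRSF1B, TRAF3, TRAF6, MAP3K7, TAB2 and RIPK2.

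**Figure D4:**
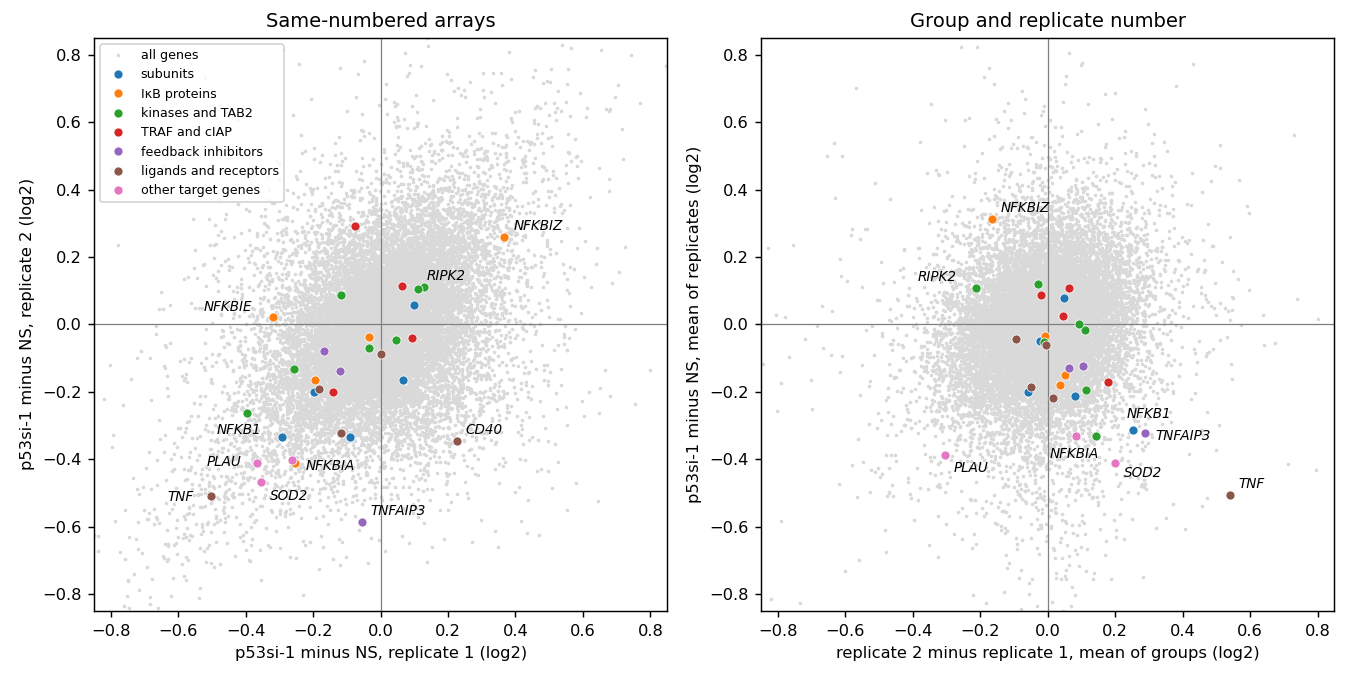
Left, log2 difference of p53si-1 minus NS between the replicate 2 arrays (y axis) and between the replicate 1 arrays (x axis). Right, mean difference of p53si-1 minus NS (y axis) against replicate 2 minus replicate 1 (x axis). Coloured points are the 32 NF-kB genes by role and grey points are all genes within the axis limits. In the right panel TNF lies at 0.54 on the x axis and -0.51 on the y axis.

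Leaving out 1 array moved the size of the members' median difference but kept its sign. These fits reuse the remaining arrays, so the kept sign is not independent support, and a shift of the group was not tested. The median difference of the members ran from -0.16 without NS replicate 1 to -0.0816 without NS replicate 2, and from 23 to 26 members had a lower mean. Members lower at an unadjusted p under 0.05 from limma numbered 1 without NS replicate 2 (PLAU), where 5.99% of all genes were, and 2 without p53si-1 replicate 1 (PLAU and TNFAIP2), where 7.36% of all genes were. They numbered 8 without NS replicate 1, where 4.94% of all genes were, and 7 without p53si-1 replicate 2, where 4.73% of all genes were. TNF and TNFAIP3 were lower by over 1.5-fold without NS replicate 1 (-0.78 and -0.60), as were 0.766% of all genes. Without p53si-1 replicate 2, TNF was (-0.77), as were 0.722% of all genes. No member was without NS replicate 2 or p53si-1 replicate 1, where 0.966% and 1% of all genes were.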

How the data were processed

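RNA of MDA-MB-468 cells with NS or p53si-1 shRNA (n = 2 arrays each) was hybridized to Affymetrix Human Gene ST arrays. The authors deposited RMA values, made with Expression Console according to the labels, and these were read as log2 from their range (1.75 to 14.3). The study describes the experiments as independent of each other without naming separate cultures, and the number of arrays limits the precision. RMA equalizes arrays, so a shift shared by all genes is not seen.

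Of 33297 transcript clusters, 19460 carried 1 gene symbol in the platform annotation, 1754 several and 12083 none. Clusters with 1 symbol were reduced to 18417 genes by the highest mean signal. All genes were fitted with limma 3.58.1 in R 4.3.3 (lmFit, eBayes) on 2 groups and adjusted by Benjamini-Hochberg, after a test of the script on simulated data. Replicate 2 minus replicate 1 came from a fit with group and replicate terms, which leaves 1 residual degree of freedom. Members and lists were chosen with earlier results of these data known. Full values were given for the 12 members with the largest difference, the 5 subunits, NFKBIA, TNFAIP3 and the 3 members with the largest replicate difference, and the 4 genes with the largest difference in each further list were named. IKBKB, CHUK and other members shown by array beyond these were added after their values were seen. Alternatives covered the choice of cluster, dim genes, normalization, the prior variance, a replicate block, the fold criterion and leaving out each array. Promoter windows for CSF1, CD40, RELB, NFKBIE, RIPK2 and IKBKB were not used here.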

Additional observations from a re-analysis of the deposited data

How the results depend on the processing

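Of 14 named members under 10 alternatives each, the direction reversed for NFKB2 alone, whose difference ran from -0.12 without p53si-1 replicate 1 to 0.021 without p53si-1 replicate 2. Centring each array on its median moved the members' median difference to -0.11 and that of all genes to 0.0158. With a 1.3-fold criterion 3 members were lower (TNF, SOD2 and PLAU), as were 2.56% of all genes. With a trend and robust prior variance, 10 members were lower at an unadjusted p under 0.05, as were 6.89% of all genes. For replicate 2 minus replicate 1, that prior gave 2 members at an adjusted p under 0.05 (lowest 0.0403; 1.04% of all genes passed) and 5 higher at an unadjusted p under 0.05 (6.12% of all genes), and 1 member (TNF) was higher by over 1.3-fold (0.597% of all genes). The causes were not tested.

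Leaving out 1 array gave a median from -0.16 to -0.0816, from 0 to 2 members lower by over 1.5-fold, from 1 to 8 lower and from 0 to 1 higher at an unadjusted p under 0.05. The higher one, NFKBIZ, was lost without NS replicate 2 and without p53si-1 replicate 1. The lone array of a group was assumed to vary like the other group.

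Deviations of same-numbered arrays correlated at 0.24 over all genes, which with 2 pairs does not establish pairing. With the replicate block, 9 members were lower at an unadjusted p under 0.05 (9.39% of all genes) and 0 passed after adjustment (lowest 0.0759, TNF).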
